A study of Mus musculus with 3 samples.

Results

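The genes described here are 10 transcripts that cells switch on quickly after a stimulus, Fos, Fosb, Jun, Junb, Egr1, Ier2, Atf3, Nr4a1, Dusp1 and Cyr61, followed in the inguinal lymph nodes of mice. They were taken by name from the deposited gene table. Each of the 10 names was found among 46951 loci, and where a name stood on 2 rows, as for Junb, the row with the higher mean level was used. The table holds 1 library per group. The groups were male C57BL/6j mice given 20(OH)D3 or 25(OH)D3, each at 4 µg/kg per day, and male mice of the same strain given the ethanol vehicle. Every group, vehicle included, had first had the contact sensitizer DNFB painted on the belly skin, and intraperitoneal injections started 3 days afterwards. Per the labels the injections ran for 4 consecutive days and nodes were taken 24 hours after the final dose. The series description speaks of 1 week of treatment instead. The compounds are vitamin D3 with an added hydroxyl group, placed on a different carbon of the side chain in each.

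Because each group is a single library, differences could not be set against replicates and no p-value was possible. Whether a library came from 1 mouse or from several was not given in the sources used here. All values therefore describe these libraries, not the treatments. Recovered reads numbered 7522550 with 20(OH)D3, 7991748 with 25(OH)D3 and 8226431 with vehicle. Lymph node identity was plain in each library, with 10 B cell markers summing to between 2147 and 2499 FPKM and 10 T cell markers to between 1371 and 1872 FPKM. FPKM counts fragments per kilobase of transcript, scaled to sequencing depth. The 10 adipocyte markers summed to 8784 FPKM with 20(OH)D3, 3817 FPKM with 25(OH)D3 and 1987 FPKM with vehicle. The 10 neutrophil markers summed to 60.3 FPKM with 20(OH)D3, 121 FPKM with 25(OH)D3 and 28.9 FPKM with vehicle. In bulk RNA, fewer cells of a type and less RNA per cell cannot be told apart.

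Immediate early genes are transcribed within minutes of a signal, without new protein synthesis, because the transcription factors that act on them already sit in the nucleus and wait for phosphorylation. MAP kinases and cyclic AMP signalling are the main routes to them. Their messages are short-lived, so a level found in tissue reflects recent signalling, and in lymph nodes antigen receptor engagement of T and B cells is a known inducer. Fos and Jun proteins pair to form the AP-1 transcription factor. Egr1 and Nr4a1 are DNA-binding proteins that follow antigen receptor strength. Dusp1 removes phosphate from MAP kinases and so closes the loop. Cyr61, now named Ccn1, is a secreted matricellular protein made mainly by stromal and endothelial cells, and it is also a target of the YAP and TAZ coactivators.

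RefSeq promoters, from 250 bases before to 50 bases after the start of transcription on GRCm38.p6, were found for 8 of the 10 genes, and Egr1 and Ier2 are named only. The promoters of the gene that differed most in level (Cyr61), of Fos, of Junb and of Nr4a1 are printed. They were picked from the promoters holding the core of the cyclic AMP response element, which also include those of Atf3, Dusp1 and Fosb. The Jun promoter held no exact match to this core. Capitals mark every match, on either strand, to the motifs searched. The core of the cyclic AMP response element was searched as TGACG. The TATA box was searched as TATAAA. The site of TEAD proteins, through which YAP and TAZ act, was searched as GGAATG. The EGR site was searched as GCGGGGGCG or GCGTGGGCG.
Cyr61, chr3:145649936-145650235, minus strand: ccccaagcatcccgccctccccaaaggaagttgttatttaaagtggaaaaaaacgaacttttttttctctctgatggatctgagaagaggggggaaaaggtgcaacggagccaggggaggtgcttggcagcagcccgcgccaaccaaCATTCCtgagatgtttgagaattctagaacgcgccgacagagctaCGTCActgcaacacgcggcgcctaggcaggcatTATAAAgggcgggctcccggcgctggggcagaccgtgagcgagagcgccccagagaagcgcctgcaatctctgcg
Fos, chr12:85473640-85473939, plus strand: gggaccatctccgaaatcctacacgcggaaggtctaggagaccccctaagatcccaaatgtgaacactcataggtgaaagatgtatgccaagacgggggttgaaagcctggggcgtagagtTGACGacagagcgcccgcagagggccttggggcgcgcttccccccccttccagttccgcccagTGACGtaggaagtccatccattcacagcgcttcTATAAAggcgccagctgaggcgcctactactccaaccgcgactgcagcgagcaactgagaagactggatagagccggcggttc
Junb, chr8:84978699-84978998, minus strand: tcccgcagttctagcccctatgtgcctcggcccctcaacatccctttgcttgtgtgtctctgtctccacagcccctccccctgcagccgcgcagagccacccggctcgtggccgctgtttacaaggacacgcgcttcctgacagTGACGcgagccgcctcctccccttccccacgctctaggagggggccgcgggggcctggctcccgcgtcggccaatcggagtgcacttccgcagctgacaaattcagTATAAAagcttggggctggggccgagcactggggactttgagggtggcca
Nr4a1, chr15:101266596-101266895, plus strand: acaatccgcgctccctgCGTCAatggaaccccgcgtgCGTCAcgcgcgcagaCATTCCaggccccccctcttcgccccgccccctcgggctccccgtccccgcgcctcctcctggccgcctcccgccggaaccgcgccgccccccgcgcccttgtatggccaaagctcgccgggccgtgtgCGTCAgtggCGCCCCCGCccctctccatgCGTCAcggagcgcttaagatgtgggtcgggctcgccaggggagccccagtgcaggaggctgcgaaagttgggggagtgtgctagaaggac

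The sequence TGACG stood in 7 of the 8 promoters, all but that of Jun, and in 20.8% of all 32851 promoters of the same length. Nr4a1 carried 4 matches. The full element TGACGTCA, which contains the shorter one on both strands, was found in Dusp1 alone among the 8 and in 1.79% of all promoters. The letters TATAAA stood in 3 of 8 (Cyr61, Fos and Junb), against 13.6% of all. They began at -25 in Cyr61 and -33 in Fos, counted from the RefSeq start, but at position 1 in Junb, on that start itself. For Junb, the deposited locus and GENCODE M21 place the start further downstream, at 84978718. Counted from there, the letters lie upstream of the start, so their place depends on the annotation. The TEAD site stood in Cyr61 and Nr4a1, against 14.7% of all promoters. EGR sites stood in Fosb and Nr4a1, against 3.47% of all. No match to the AP-1 site TGACTCA or TGAGTCA (5.20% of all promoters) or to the serum response element (1.63%) lay in these 8 windows. Sequence upstream of the windows, other variants of the motif letters and the promoters of Egr1 and Ier2 were not searched. The absence of a match, as of TGACG in Jun, therefore does not show that a gene lacks an element. Such matches describe the letters in the window and not occupancy by a factor.

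The 10 genes spanned a wide range of levels, and Junb, the most abundant, averaged 72.4 FPKM over the 3 libraries. Ier2 followed at 44.2 FPKM, Egr1 at 18.7 FPKM, Nr4a1 at 13.0 FPKM and Dusp1 at 11.7 FPKM. Jun averaged 7.18 FPKM, Cyr61 6.38 FPKM, Atf3 1.85 FPKM, Fos 1.60 FPKM and Fosb 0.888 FPKM. The ranges over the libraries overlapped for Nr4a1 and Dusp1, for Jun and Cyr61, and for Atf3 and Fos, so the order within those pairs is not clear. Fosb alone was under the mean of 1 FPKM required for the counts across all loci, which left 9 of the 10 genes. Fos, Fosb and Atf3 rested on 19 to 38 reads per library.

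**Figure D1:**
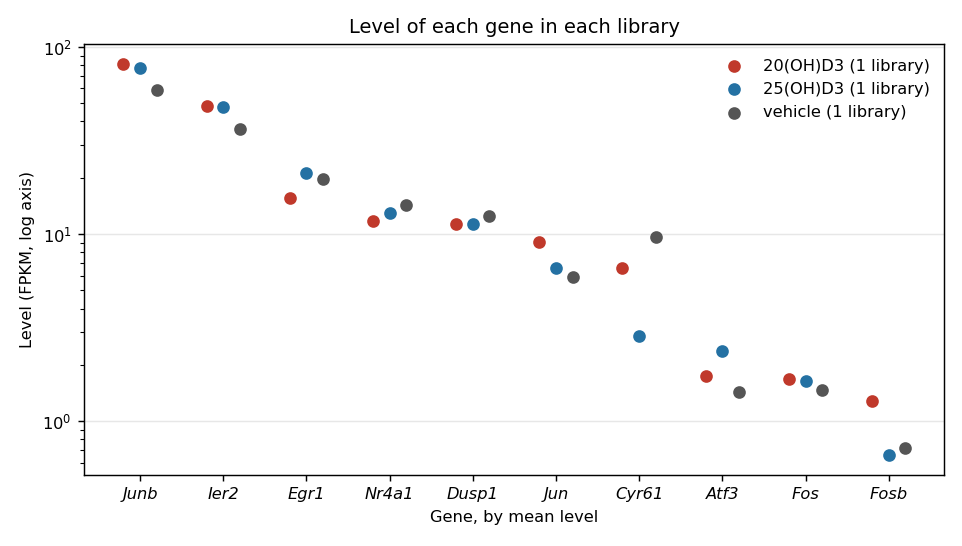
Level in FPKM (log axis) of each gene in the 20(OH)D3, 25(OH)D3 and vehicle libraries, 1 point per library, with genes ordered by their mean. Cyr61 has the widest spread, from 2.84 FPKM with 25(OH)D3 to 9.67 FPKM with vehicle.

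In the 20(OH)D3 library Junb, Jun and Ier2 stood higher than with vehicle and Egr1, Nr4a1 and Cyr61 lower, each by less than 2-fold. Of the 9 genes past the filter, 0 reached 2-fold above vehicle and 0 reached 2-fold below it on the scale of FPKM + 1, where 4.42% and 1.13% of 14032 loci did. After each library's FPKM were brought to the same sum (TPM) these background shares became 3.72% and 2.10%, and on normalized counts 2.98% and 0.221%. Their median log2 ratio was 0.13, beside -0.01 over all loci, with 5 above 0 and 4 below, where 49.0% of loci were above 0 and 50.8% below. For a comparison of reads, each ratio of normalized counts carries an exact 95% interval that covers counting error only. The interval lay wholly above 1 for 3 of the 9 genes and wholly below 1 for 3, beside 20.2% and 21.8% of all loci.

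In the 25(OH)D3 library Cyr61 stood far below vehicle, while Junb and Ier2 were again higher. Cyr61 was the 1 gene of 9 at least 2-fold lower, where 1.02% of loci were, and 0 were at least 2-fold higher, where 1.35% of loci were. After rescaling to TPM the background shares were 1.77% lower and 1.34% higher, and on normalized counts 0.214% and 0.499%. The median log2 ratio of the 9 genes was 0.10, beside 0.03 over all loci, with 6 above 0 and 3 below, where 54.8% of loci were above 0 and 44.9% below. Intervals lay wholly above 1 for 2 of 9 and wholly below 1 for 1, beside 14.6% and 12.2% of loci. Neutrophil markers also stood apart in this library. Of the 8 past the filter, 5 were at least 2-fold higher with 25(OH)D3 than with vehicle, where 1.35% of loci were. Their median log2 ratio was 2.06, with S100a8 highest at 3.11 on 91 reads with 25(OH)D3 against 9 with vehicle. With 20(OH)D3 against vehicle the median of the 8 was 0.02, with 4 above 0 and 4 below. S100a8 was highest there too, at 2.52, and 2 of the 8 were at least 2-fold higher and 1 lower, where 4.42% and 1.13% of loci were. The part of neutrophil content in the values of the 10 genes was not tested. Both compound libraries are compared with the same vehicle library, so a low or high vehicle value moves both ratios together.

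**Figure D2:**
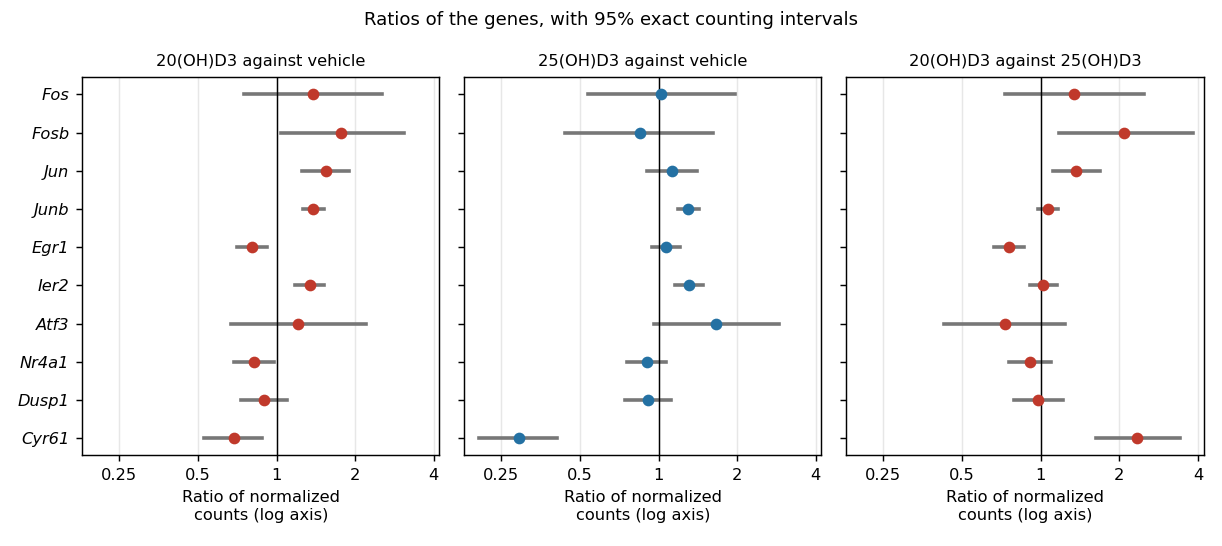
Ratio of normalized counts of each gene (log axis) for 20(OH)D3 against vehicle, 25(OH)D3 against vehicle and 20(OH)D3 against 25(OH)D3, with bars for exact 95% counting intervals. Intervals of Junb and Ier2 lie above 1 in both comparisons with vehicle, and that of Cyr61 lies below 1 in both.

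Among the transcripts of the Jun family, Junb and Jun both stood above vehicle with 20(OH)D3. Junb (GRCm38 chromosome 8, 84976910 to 84978718, minus strand), an AP-1 subunit that restrains the growth-promoting action of Jun in many cells, had 81.5 FPKM with 20(OH)D3, 76.8 FPKM with 25(OH)D3 and 58.9 FPKM with vehicle. Both compound libraries were higher and close to each other. The ratio of counts was 1.38 (interval 1.27 to 1.51) for 20(OH)D3 against vehicle and 1.30 (1.19 to 1.42) for 25(OH)D3 against vehicle. Between the compounds the interval held 1 (1.07, 0.978 to 1.16). These values rest on 1101, 1078 and 890 reads in the 20(OH)D3, 25(OH)D3 and vehicle libraries.

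Jun (chromosome 4, 95049034 to 95167318, minus strand), the founding member of the family, had 9.05 FPKM with 20(OH)D3, 6.62 FPKM with 25(OH)D3 and 5.87 FPKM with vehicle. The 20(OH)D3 library stood apart from the other 2. Its ratio was 1.54 (1.26 to 1.90) against vehicle and 1.37 (1.12 to 1.68) against 25(OH)D3, whereas 25(OH)D3 against vehicle gave 1.13 (0.903 to 1.40). The table's locus is far longer than the Jun gene of GENCODE M21, which ends at 95052222. It also spans Junos and 2 other genes on the opposite strand, whose reads cannot be told apart from those of Jun without strand. A noncoding RNA on the same strand, 4930551L18Rik, lies inside it too, and strand would not separate that transcript from Jun.

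Jund, which encodes the constitutive Jun protein, had the most abundant transcript of the family. It stood at 204 FPKM with 20(OH)D3, 180 FPKM with 25(OH)D3 and 171 FPKM with vehicle. Of the summed FPKM of Jun, Junb and Jund, Jund made up 69.3%, 68.4% and 72.5% and Junb 27.7%, 29.1% and 25.0% in the 20(OH)D3, 25(OH)D3 and vehicle libraries. The family sum was 295 FPKM with 20(OH)D3, 264 FPKM with 25(OH)D3 and 235 FPKM with vehicle. Junb and Jun together thus held the smaller share in every library.

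Transcripts of the Fos family were scarce. Fos (chromosome 12, 85473890 to 85477273, plus strand), which cannot pair with itself and needs a Jun partner, had 1.69 FPKM with 20(OH)D3, 1.64 FPKM with 25(OH)D3 and 1.46 FPKM with vehicle. These came from 27, 21 and 22 reads, and all 3 intervals held 1, the widest reaching from 0.753 to 2.53 for 20(OH)D3 against vehicle. Differences within that range were not detectable at this depth.

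Fosb (chromosome 7, 19302696 to 19310051, minus strand), the related protein whose shortened form is long-lived in neurons, had 1.29 FPKM with 20(OH)D3, 0.658 FPKM with 25(OH)D3 and 0.717 FPKM with vehicle. The 20(OH)D3 library was highest, on 38 reads against 19 with 25(OH)D3 and 24 with vehicle. Its ratio was 1.77 (1.04 to 3.09) against vehicle and 2.09 (1.17 to 3.83) against 25(OH)D3. Fosl2, another Fos family member, was the most abundant of the 4 at 4.97 FPKM with 20(OH)D3, 3.68 FPKM with 25(OH)D3 and 3.55 FPKM with vehicle. Its ratio of 20(OH)D3 to vehicle was 1.38 (1.13 to 1.67). Fosl1 had 7, 5 and 7 reads in the 20(OH)D3, 25(OH)D3 and vehicle libraries. The sum of Fos, Fosb, Fosl1 and Fosl2 was 8.50 FPKM with 20(OH)D3, 6.35 FPKM with 25(OH)D3 and 6.22 FPKM with vehicle, far below the Jun sum in every library.

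Egr1 (chromosome 18, 34859823 to 34864984, plus strand), a zinc finger factor, was lowest with 20(OH)D3. It had 15.5 FPKM with 20(OH)D3, 21.1 FPKM with 25(OH)D3 and 19.6 FPKM with vehicle. The 25(OH)D3 and vehicle libraries lay close together, with a ratio of 1.06 (0.943 to 1.20) that turned to a log2 value of -0.05 after rescaling to TPM. The ratio of 20(OH)D3 was 0.803 (0.703 to 0.916) to vehicle and 0.754 (0.660 to 0.861) to 25(OH)D3. Its relatives did not share this order. Egr2 had 5.88 FPKM with 20(OH)D3, 5.60 FPKM with 25(OH)D3 and 6.07 FPKM with vehicle, and Egr3 had 19.7, 15.6 and 19.5 FPKM in the 20(OH)D3, 25(OH)D3 and vehicle libraries.

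Nr4a1 (chromosome 15, 101266846 to 101274792, plus strand), the orphan nuclear receptor Nur77 that reports T cell receptor signalling, had 11.7 FPKM with 20(OH)D3, 12.9 FPKM with 25(OH)D3 and 14.3 FPKM with vehicle. Vehicle was highest, and the interval left out 1 for 20(OH)D3 (0.818, 0.685 to 0.975) but not for 25(OH)D3 (0.901, 0.760 to 1.07). Nr4a3, its close relative in T cells, had 2.29 FPKM with 20(OH)D3, 2.63 FPKM with 25(OH)D3 and 3.99 FPKM with vehicle. Here both compound libraries were lower, with ratios of 0.577 (0.447 to 0.743) and 0.646 (0.506 to 0.821) to vehicle. Nr4a2, at 31, 16 and 14 reads in the 20(OH)D3, 25(OH)D3 and vehicle libraries, stood higher with 20(OH)D3 than with vehicle, at a ratio of 2.48 (1.28 to 5.04). T cell markers were also lower in the 20(OH)D3 library, with 8 of 10 below 0 against vehicle (median log2 ratio -0.34). For 25(OH)D3 against vehicle, 2 of 10 were below 0 (median 0.14). Over all loci, 50.8% were below 0 with 20(OH)D3 and 44.9% with 25(OH)D3. B cell markers were lower with 20(OH)D3 as well, with 9 of 10 below 0 against vehicle (median -0.24), and 2 of 10 below 0 with 25(OH)D3 (median 0.05). By normalized counts, 9 of 10 B cell markers were below 0 with 20(OH)D3 (median -0.19) and 6 of 10 with 25(OH)D3 (median -0.01). The part of T and B cell content in the Nr4a1 and Egr1 values was not tested.

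Ier2 (chromosome 8, 84661331 to 84662852, minus strand), a small nuclear protein of the immediate early response, followed Junb. It had 48.7 FPKM with 20(OH)D3, 47.7 FPKM with 25(OH)D3 and 36.3 FPKM with vehicle. Both compound libraries were higher, at ratios of 1.34 (1.18 to 1.52) and 1.31 (1.15 to 1.48) to vehicle, and the ratio between them was 1.02 (0.908 to 1.15). Adipocyte markers differed 4.42-fold in their sum between the 20(OH)D3 and vehicle libraries and 1.92-fold between the 25(OH)D3 and vehicle libraries, while the ratios of Junb and Ier2 to vehicle were alike in both. The part of adipocyte content in these values was not tested. Ier5, a relative of Ier2, had 60.2 FPKM with 20(OH)D3, 65.6 FPKM with 25(OH)D3 and 49.0 FPKM with vehicle, also higher in both. Ier3, an apoptosis regulator, had 9.53, 7.23 and 6.92 FPKM in the 20(OH)D3, 25(OH)D3 and vehicle libraries, with both intervals to vehicle holding 1.

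Atf3 (chromosome 1, 191170296 to 191218039, minus strand), a stress-induced repressor that binds cyclic AMP response elements, had 1.74 FPKM with 20(OH)D3, 2.38 FPKM with 25(OH)D3 and 1.43 FPKM with vehicle. The 25(OH)D3 library was highest, but on 37 reads against 24 with vehicle the interval still held 1 (1.65, 0.963 to 2.89). Atf4, the integrated stress response factor that drives Atf3, was at 92.8 FPKM with 20(OH)D3, 105 FPKM with 25(OH)D3 and 67.9 FPKM with vehicle. Its ratios to vehicle were 1.37 (1.25 to 1.49) with 20(OH)D3 and 1.54 (1.42 to 1.67) with 25(OH)D3.

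Dusp1 (chromosome 17, 26505590 to 26508519, minus strand), the phosphatase that inactivates p38 and JNK, was the steadiest of the 10. It had 11.4 FPKM with 20(OH)D3, 11.3 FPKM with 25(OH)D3 and 12.4 FPKM with vehicle. The highest library exceeded the lowest 1.10-fold, and all 3 intervals held 1, the ratios to vehicle being 0.895 (0.728 to 1.10) with 20(OH)D3 and 0.913 (0.746 to 1.12) with 25(OH)D3. The ERK phosphatases Dusp5 and Dusp6 stood higher with 25(OH)D3. Dusp5 had 10.8 FPKM with 20(OH)D3, 16.6 FPKM with 25(OH)D3 and 12.0 FPKM with vehicle, and Dusp6 had 22.5, 28.8 and 20.1 FPKM in the 20(OH)D3, 25(OH)D3 and vehicle libraries. Ratios of 20(OH)D3 to 25(OH)D3 were 0.655 (0.548 to 0.782) for Dusp5 and 0.783 (0.695 to 0.882) for Dusp6.

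Cyr61 (chromosome 3, 145646976 to 145649981, minus strand) differed most. It had 6.62 FPKM with 20(OH)D3, 2.84 FPKM with 25(OH)D3 and 9.67 FPKM with vehicle, from 101, 45 and 165 reads. The vehicle library was highest, and the 25(OH)D3 library stood well below both others. Counts were 3.42-fold lower (2.44 to 4.86) with 25(OH)D3 than with vehicle and 1.46-fold lower (1.13 to 1.89) with 20(OH)D3 than with vehicle. Between the compounds, at the same dose and time, 20(OH)D3 was 2.34-fold higher (1.63 to 3.40) by counts, and on the FPKM + 1 scale its log2 ratio of 0.99 fell just short of 2-fold. For 20(OH)D3 against 25(OH)D3, 0 of 9 genes thus reached 2-fold above and 0 reached 2-fold below by FPKM, where 3.20% and 1.22% of loci did, and by counts Cyr61 was 1 of 9, where 1.95% of loci were. The median log2 ratio of the 9 genes between the compounds was 0.03, beside -0.02 over all loci, with 2 intervals wholly above 1 and 1 wholly below, beside 18.6% and 21.0% of loci.

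Across the 9580 loci that averaged 100 reads or more, Cyr61 had the fourth lowest ratio of 25(OH)D3 to vehicle, with 0.0313% of loci lower. With 20(OH)D3 against vehicle, 1.69% of these loci were lower than Cyr61. Of the 7 genes with that depth, no other lay so far out in either comparison with vehicle. Jun had 7.06% of loci above it with 20(OH)D3, and Junb and Ier2 had 6.49% and 6.16% above them with 25(OH)D3.

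**Figure D3:**
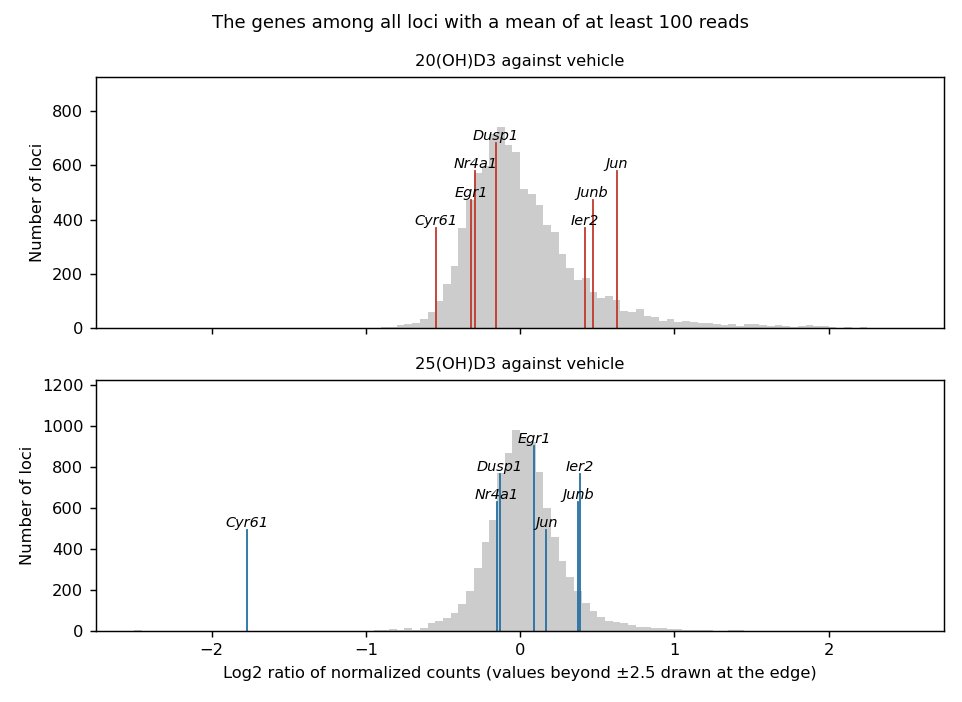
Histogram of log2 ratios of normalized counts over the 9580 loci that averaged 100 reads or more, with lines at the 7 genes that reach that depth, for 20(OH)D3 against vehicle (top) and 25(OH)D3 against vehicle (bottom). Cyr61 at -1.77 stands outside the bulk of loci with 25(OH)D3, and the other lines fall within it.

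Ctgf, now Ccn2, the nearest relative of Cyr61 and likewise a YAP target, was also lowest with 25(OH)D3. It had 2.61 FPKM with 20(OH)D3, 0.731 FPKM with 25(OH)D3 and 2.14 FPKM with vehicle, from 48, 14 and 44 reads. With 25(OH)D3 it was 2.93-fold lower than with vehicle by counts (1.58 to 5.79), and 20(OH)D3 exceeded 25(OH)D3 3.58-fold (1.94 to 7.02). Unlike Cyr61, its 20(OH)D3 and vehicle values lay close, with a ratio of 1.22 (0.794 to 1.88). Nov, another CCN gene, was under the filter with 6, 8 and 20 reads in the 20(OH)D3, 25(OH)D3 and vehicle libraries. Its ratios to vehicle were 0.336 (0.110 to 0.867) with 20(OH)D3 and 0.429 (0.163 to 1.02) with 25(OH)D3.

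Of 22 genes of the CCN family and the YAP and TAZ pathway, 15 passed the filter. Against vehicle, 12 were above 0 with 20(OH)D3 (median log2 ratio 0.20) and 7 with 25(OH)D3 (median -0.02), where 49.0% and 54.8% of all loci were. Amotl2, a YAP-induced scaffold that holds YAP in the cytoplasm, was highest with 20(OH)D3 at 13.5 FPKM, against 6.08 FPKM with 25(OH)D3 and 5.34 FPKM with vehicle. The coactivator gene Wwtr1, which encodes TAZ, had 7.52, 4.10 and 4.79 FPKM, and Yap1 had 6.54, 5.27 and 5.16 FPKM, in the 20(OH)D3, 25(OH)D3 and vehicle libraries. The kinase gene Nuak2 was the lowest of the list between the compounds, at 12.1 FPKM with 20(OH)D3 and 16.4 FPKM with 25(OH)D3. Tead2 was lowest with 20(OH)D3 against vehicle, at a log2 ratio of -0.33. Counts did not bear this out, with a ratio of 0.928 (0.671 to 1.28). Among the 15 genes past the filter the log2 ratios of 25(OH)D3 to vehicle ran from -0.86 for Ctgf and -0.31 for Amotl1, the next lowest, to 0.34 for F3. The 8 integrin and syndecan genes of its receptors had a median log2 ratio of -0.05 with 20(OH)D3 and -0.11 with 25(OH)D3 against vehicle. None of them passed 2-fold, where 4.42% and 1.35% of all loci were that much higher and 1.13% and 1.02% that much lower.

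Vessel markers, like Cyr61 and Ctgf, mostly stood lower with 25(OH)D3 than with vehicle. The 8 lymphatic endothelial markers summed to 56.4 FPKM with 20(OH)D3, 36.2 FPKM with 25(OH)D3 and 46.7 FPKM with vehicle. Of the 7 past the filter, 6 were below 0 with 25(OH)D3 against vehicle (median log2 ratio -0.43), where 44.9% of all loci were, and Mmrn1 was lowest at 0.888 FPKM with 25(OH)D3 against 2.18 FPKM with vehicle. The 10 blood endothelial markers summed to 388 FPKM with 20(OH)D3, 288 FPKM with 25(OH)D3 and 333 FPKM with vehicle, with 7 of 10 below 0 with 25(OH)D3 (median -0.15). Of the fibroblastic markers 7 of 10 were above 0 in both comparisons with vehicle, with sums of 708, 669 and 579 FPKM in the 20(OH)D3, 25(OH)D3 and vehicle libraries. Smooth muscle and pericyte markers summed to 163, 147 and 145 FPKM in the 20(OH)D3, 25(OH)D3 and vehicle libraries. With 20(OH)D3 against vehicle, where Cyr61 was lower, 8 of 10 blood endothelial markers were above 0 (median 0.27) and 5 of 7 lymphatic ones (median 0.07), where 49.0% of all loci were. Pecam1 was among those lower, at a ratio of 0.923 (0.875 to 0.974). The part of endothelial content in the Cyr61 values was not tested.

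The loci whose ratios to vehicle lay nearest to those of Cyr61 were sought in 8198 loci averaging 5 FPKM and 100 reads or more, by the distance between their log2 ratios of normalized counts over the 3 libraries. The nearest was Vwf, the clotting factor of endothelium and platelets, yet its distance was 0.713. It had 9.33 FPKM with 20(OH)D3, 4.90 FPKM with 25(OH)D3 and 7.96 FPKM with vehicle, from 235, 90 and 253 reads. By counts, its log2 ratio of 25(OH)D3 to vehicle was -1.39, a wider gap than its FPKM show. Jchain, Mfsd4a, Dsg2 and the mast cell protease gene Mcpt4 followed at 0.810, 0.908, 0.944 and 0.966. None of the loci searched thus had nearly the same pattern. Ctgf, at a mean of 1.83 FPKM, was under the level required and was not compared. For Fos the search gave Vcl, Tssc4, Manbal, Stk39 and Alas1 within 0.0215, but the 21 to 27 reads of Fos leave its own ratios with wide intervals.

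Of 40 other genes of the immediate early response 37 passed the filter. With 20(OH)D3 against vehicle, 24 were above 0 and 13 below (median log2 ratio 0.11), beside 49.0% of loci above 0. Of the 37 genes, 0 passed 2-fold in either direction, where 4.42% of loci were higher and 1.13% lower. Intervals of these genes lay wholly above 1 for 12 and wholly below 1 for 8, beside 20.2% and 21.8% of all loci. With 25(OH)D3, 28 were above 0 and 9 below (median 0.15), beside 54.8% of loci above 0. Of the 37 genes, 1 was at least 2-fold higher and 0 lower, where 1.35% and 1.02% of loci were. Gadd45g, a growth arrest gene, was highest in both comparisons at 12.2 FPKM with 20(OH)D3, 12.8 FPKM with 25(OH)D3 and 5.82 FPKM with vehicle. Its ratios to vehicle by counts were 2.10 (1.46 to 3.04) with 20(OH)D3 and 2.15 (1.5 to 3.10) with 25(OH)D3. Gadd45a was also higher in both, at 12.5, 13.5 and 7.21 FPKM in the 20(OH)D3, 25(OH)D3 and vehicle libraries.

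Zfp36, whose protein destabilizes messages, stood at 76.1 FPKM with 20(OH)D3, 105 FPKM with 25(OH)D3 and 78.5 FPKM with vehicle. Its relative Zfp36l2 was the lowest of the list with 25(OH)D3, at 72.6, 62.1 and 87.7 FPKM in the 20(OH)D3, 25(OH)D3 and vehicle libraries. Klf2, the quiescence and trafficking factor of lymphocytes, had 195, 241 and 221 FPKM, and Klf4 had 6.99, 5.08 and 6.39 FPKM, in the 20(OH)D3, 25(OH)D3 and vehicle libraries. Btg2, an antiproliferative gene, had 68.3, 73.2 and 74.2 FPKM in the 20(OH)D3, 25(OH)D3 and vehicle libraries. Between the compounds the extremes were Ier5l, at 5.59 FPKM with 20(OH)D3 and 3.33 FPKM with 25(OH)D3, and Mafk, at 10.4 FPKM with 20(OH)D3 and 16.3 FPKM with 25(OH)D3.

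**Figure D4:**
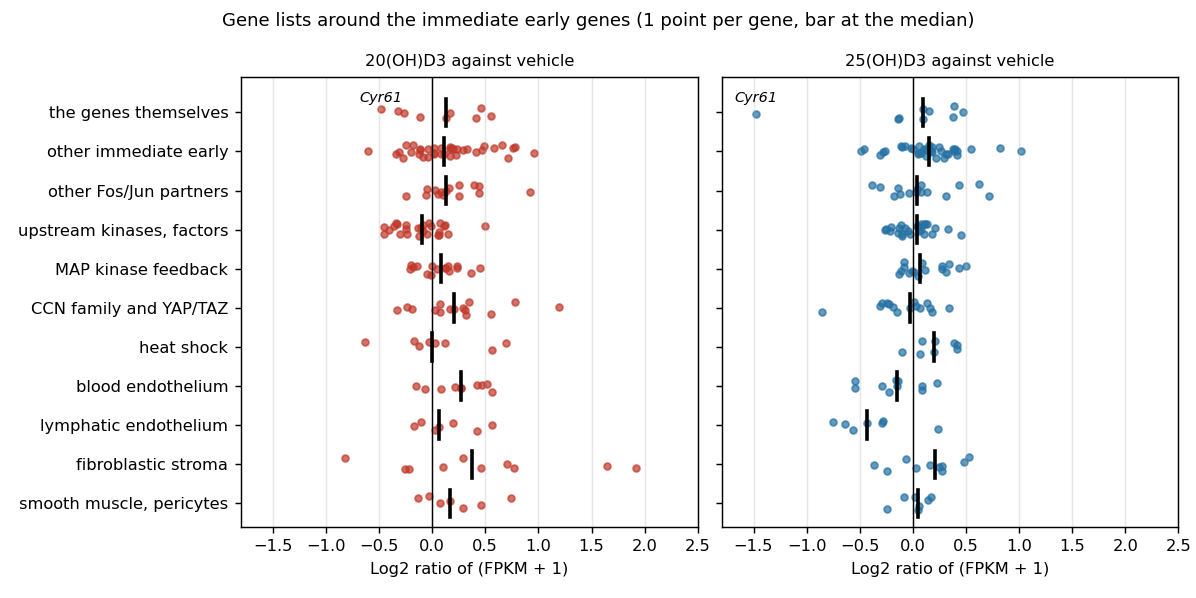
Log2 ratio of (FPKM + 1) to vehicle for each gene past the filter, by list, with a bar at the list's median, for 20(OH)D3 (left) and 25(OH)D3 (right). Cyr61 lies at -0.48 and -1.48, and the lymphatic endothelial median lies at 0.07 and -0.43.

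The wider set of leucine zipper partners, 15 of 16 past the filter, had 12 genes above 0 with 20(OH)D3 (median log2 ratio 0.13) and 9 with 25(OH)D3 (median 0.04) against vehicle, where 49.0% and 54.8% of all loci were. Batf2, an interferon-inducible partner, had 5.45 FPKM with 20(OH)D3, 1.74 FPKM with 25(OH)D3 and 2.40 FPKM with vehicle. Batf2 was the 1 gene of the list past 2-fold between the compounds, where 3.20% of loci were higher with 20(OH)D3 and 1.22% lower. Batf3, which conventional dendritic cells need, was highest with 25(OH)D3 at 20.2, 31.0 and 18.5 FPKM in the 20(OH)D3, 25(OH)D3 and vehicle libraries. Jdp2 was lowest in both comparisons with vehicle, at 3.33, 2.95 and 4.14 FPKM in the 20(OH)D3, 25(OH)D3 and vehicle libraries.

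Of the 26 kinases and factors upstream, 18 were below 0 and 8 above with 20(OH)D3 against vehicle (median log2 ratio -0.10), beside 50.8% of loci below 0. Of the 26, 0 passed 2-fold, where 4.42% of loci were higher and 1.13% lower. With 25(OH)D3, 12 of 26 were below 0 (median 0.04), beside 44.9% of loci. Mkl1, an actin-sensing coactivator of Srf, was lowest with 20(OH)D3 at 34.6 FPKM, against 44.5 FPKM with 25(OH)D3 and 47.9 FPKM with vehicle. Elk1, the ERK-regulated partner of Srf, was highest with 20(OH)D3 at 33.8 FPKM, against 24.9 FPKM with 25(OH)D3 and 23.6 FPKM with vehicle. Srf itself had 23.2, 21.0 and 21.4 FPKM in the 20(OH)D3, 25(OH)D3 and vehicle libraries, with intervals that held 1. With 25(OH)D3 the extremes were the p38 activator gene Map2k3 (18.1 FPKM against 13.0 FPKM with vehicle) and the kinase gene Rps6ka3 (19.3 FPKM against 23.3 FPKM with vehicle). For Mapk8, the JNK1 gene, 5.93 FPKM with 20(OH)D3 and 10.2 FPKM with 25(OH)D3 were not matched by counts, whose ratio was 0.839 (0.697 to 1.01).

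Of the 18 other phosphatases and feedback inhibitors, 16 passed the filter. Against vehicle, 9 were above 0 with 20(OH)D3 and 10 with 25(OH)D3, where 49.0% and 54.8% of all loci were. Medians of these 16 genes were 0.08 and 0.07, and 0 passed 2-fold. Over all loci, 4.42% were at least 2-fold higher and 1.13% lower with 20(OH)D3, and 1.35% and 1.02% with 25(OH)D3. Spry2 was highest with 20(OH)D3 (4.31, 2.80 and 2.88 FPKM in the 20(OH)D3, 25(OH)D3 and vehicle libraries), and Rgs1 was lowest (26.4, 28.8 and 30.6 FPKM). Dusp2, the lymphocyte phosphatase, had 63.7, 71.0 and 58.5 FPKM in the 20(OH)D3, 25(OH)D3 and vehicle libraries. Spry4 was lowest with 25(OH)D3 against vehicle, on 28 reads with 25(OH)D3 against 37 with vehicle.

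Heat shock genes, chaperones induced by heat and misfolded protein, gave no common direction with 20(OH)D3, with 4 of 8 past the filter above 0 and a median log2 ratio of -0.00, beside 49.0% of all loci above 0. With 25(OH)D3 7 of 8 were above 0 (median 0.20), beside 54.8%. The strictly inducible genes Hspa1a and Hspa1b were scarce in every library, at 5, 6 and 4 reads and at 10, 11 and 9 reads in the 20(OH)D3, 25(OH)D3 and vehicle libraries. Hspb1 was highest with 20(OH)D3 (19.2 FPKM against 11.5 FPKM with vehicle), and Hsph1 was lowest (13.9 FPKM with 20(OH)D3 against 22.0 FPKM with vehicle). By counts the ratios to vehicle were 1.67 (1.24 to 2.26) for Hspb1 and 0.830 (0.719 to 0.958) for Hsph1, the latter nearer to 1 than by FPKM.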

How the data were processed

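Total RNA of inguinal nodes was sequenced, 1 library per group. STAR 2.7.0c, Cufflinks 2.2.1, Cuffdiff and Cuffnorm with GRCm38 are named per the submitters' processing notes, with no role or annotation stated. Per the file headers, the authors deposited FPKM values and a normalized count signal for each locus. The deposited signal was whole reads times 1.05, 1.01 and 0.938 in the 20(OH)D3, 25(OH)D3 and vehicle libraries. After division by these factors 99.9% of the values lay no more than 0.02 from an integer, and the integers are taken as reads. Recovery is less certain for 25(OH)D3, whose factor is close to 1. The table also had 2 lines without content.

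Ratios are log2 of (FPKM + 1), over the 14032 loci averaging 1 FPKM or more. Ratios of low genes are understated on this scale. Ratios of normalized counts have exact 95% Clopper-Pearson intervals conditional on the sum of both counts (scipy 1.17.1). Reads are not independent molecules, so they cover counting error only. No count model was fitted, since spread cannot be estimated from single libraries. The interval step was tested on simulated data. Strand use in counting is not given. Table starts were raised by 1 to count from 1, and overlaps come from GENCODE M21. Promoters are those of RefSeq.

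The members and lists were chosen with earlier results of these data known. Named genes are the 10 members, the extremes and 2-fold genes of each list, a set of close relatives, and the 5 loci nearest in pattern to Fos and Cyr61. Atf4, Gadd45a, Amotl1, Nov, Yap1, Wwtr1, Hspa1a and Hspa1b were chosen after their values were seen. Acta1 was not found. The alternatives were pseudocounts, filters, scalings, counts in place of FPKM, and other thresholds.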

Additional observations from a re-analysis of the deposited data

How the results depend on the processing

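No paired analysis was possible because each group has 1 library, and for the same reason no library could be left out. Across 8 alternatives of pseudocount, filter, scaling and unit, Cyr61 kept a lower value with 25(OH)D3 than with vehicle, at log2 ratios from -1.73 to -0.90 beside -1.48. It passed 2-fold in all but the pseudocount of 5 FPKM, where 0 genes instead of 1 were lower, and at a 3-fold threshold the count was likewise 0. Between the compounds Cyr61 sat at the threshold, and the count of genes higher with 20(OH)D3 was 0 as reported and 1 with a pseudocount of 0.1 FPKM, after rescaling to TPM, after scaling to the upper quartile, on normalized counts and at 1.5-fold. Of 213 values of single genes, 208 moved by less than their counting error and 5 by more. The alternative filters leave a gene's own ratio as it is, so part of the 208 could not move. Past that error, after rescaling to TPM, were Junb against vehicle with both compounds, and Ier2 and Egr1 with 20(OH)D3 against vehicle. The remaining 1 was Cyr61 with 25(OH)D3 against vehicle, at the pseudocount of 5 FPKM. The signs of Egr1 with 25(OH)D3 against vehicle, and of Ier2 and Dusp1 between the compounds, changed under 1, 1 and 2 alternatives. The median of the 9 genes with 20(OH)D3 against vehicle became -0.12 when a mean of 5 FPKM was required, which left 7 genes. Over all loci, the median log2 ratio to vehicle was -0.18 in TPM beside -0.01 in FPKM with 20(OH)D3, and -0.12 beside 0.03 with 25(OH)D3. Junb, Ier2 and Jun stayed above vehicle with 20(OH)D3 under all 8, at lowest log2 ratios of 0.27, 0.23 and 0.37. Depth limits Fos, Fosb and Atf3 most.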
